A study of Homo sapiens with 3 samples.

Results

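Cadherins and non-clustered protocadherins were followed through a map of open chromatin in human neurons. The genes were the protein-coding genes whose RefSeq symbol is CDH or PCDH followed by a number, with PCDH11X and PCDH11Y included and the clustered PCDHA, PCDHB and PCDHG genes left out. The rule gave 36 of the 20037 protein-coding genes on the main chromosomes, 23 cadherins and 13 protocadherins. The neurons were made from KOLF2.1J, a widely used reference line of human iPSCs (induced pluripotent stem cells), by way of the neurogenic factor NGN2, and were taken at day 14. ATAC-seq, in which Tn5 transposase cuts accessible DNA, was run on 3 biological replicates of this single group, with no second genotype or treatment to compare it with. The authors combined the replicates into 1 list of 145092 summits in 65234 intervals, so no value carries a spread between replicates and the genes are compared with each other within 1 pooled list. Accessibility was measured here, and RNA and protein were not.

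Cadherins are calcium-dependent adhesion proteins. The classical members bind the same or a related cadherin on a neighbouring cell, and their tails bind catenins that link them to actin. Neural tissue expresses N-cadherin and many type II cadherins, whose combinations help neurons to sort, extend axons and choose synaptic partners, whereas epithelia hold together through E- and P-cadherin and vessels through VE-cadherin. The non-clustered protocadherins, chiefly the delta subfamilies, are weaker adhesion and signalling molecules found largely in the brain.

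A gene was called accessible at an end when any summit lay within 1 kb of either of its outer ends. All 14 neural cadherins were accessible (Wilson 95% confidence interval 78.5 to 100%), and so were all 10 delta protocadherins (72.2 to 100%, or 9 of 9 with 70.1 to 100% when PCDH11X and its near-identical copy PCDH11Y are counted once). None of the 7 epithelial and endothelial genes was accessible (Wilson interval 0 to 35.4%), and the 3-count rule allows a share of up to 42.9%. Of all protein-coding genes 68.8% were accessible by the same rule. Over the 36 genes the count was 28, or 77.8% (61.9 to 88.3%), which is near that background. With only intervals above the median fold enrichment of all intervals (5.60), 5 of 14 neural cadherins (35.7%) and again 0 of 7 epithelial and endothelial genes were accessible. At that threshold 58.1% of all protein-coding genes were accessible, 68.8% of those of 100 kb or longer and 56% of shorter ones, so the neural share lay below the background there and above it without the threshold. These groups were drawn up from known sites of expression with earlier results of these data in view, and the counts are a description without a test. Genes are not replicates, so the Wilson intervals and the 3-count rule reflect only list size and test no difference between groups.

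The counts were also read against gene length. The 7 epithelial and endothelial genes were 10.8 to 98.2 kb long, 2 of them under 20 kb, where 57.1% of protein-coding genes were accessible, and 5 of 20 to 100 kb, where 76.6% were (66.1% over both classes). The neural cadherins were longer, with a median of 201.2 kb, and 13 of the 14 were 100 kb or longer, a class in which 82.2% of genes were accessible (81.9% at 100 to 500 kb, with 9 of the 13, and 85.7% at 500 kb or longer, with 4). The remaining one, CDH24, was 10.5 kb long and accessible.

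Markers of the labelled cell type and of others were read the same way. An accessible end was found for 9 of 10 neuronal marker genes, 4 of 10 epithelial, 3 of 10 endothelial, 4 of 8 glial and Schwann cell and 1 of 6 pluripotency markers, beside the 68.8% of all protein-coding genes. The lists differ in gene length, with medians of 71.8 kb for the neuronal, 11.8 kb for the epithelial, 59.3 kb for the endothelial, 12.3 kb for the glial and 9.61 kb for the pluripotency markers, so the shorter lists are to be read against 57.1% under 20 kb. By annotated starts, 2 of 12 were accessible in RBFOX3, the neuronal exception, and 1 of 1 in DPPA4, a pluripotency marker without an open outer end. No open outer end was found for the epithelial markers KRT5, KRT8, KRT18, KRT19, CLDN4 and CLDN7. The same held for the endothelial markers PECAM1, TEK, TIE1, ERG, EMCN, ROBO4 and VWF. KRT18, KRT19, PECAM1 and VWF had no annotated start to check, and the annotated starts of the others had no summit within 1 kb. The open ends of EPCAM, ESRP1, GRHL2 and OCLN had 120 to 641 tags and those of ESAM, CLDN5 and KDR 127 to 462, against 227 to 1185 at the 9 neuronal markers. The part of other cells in the values below was not tested.

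**Figure D1:**
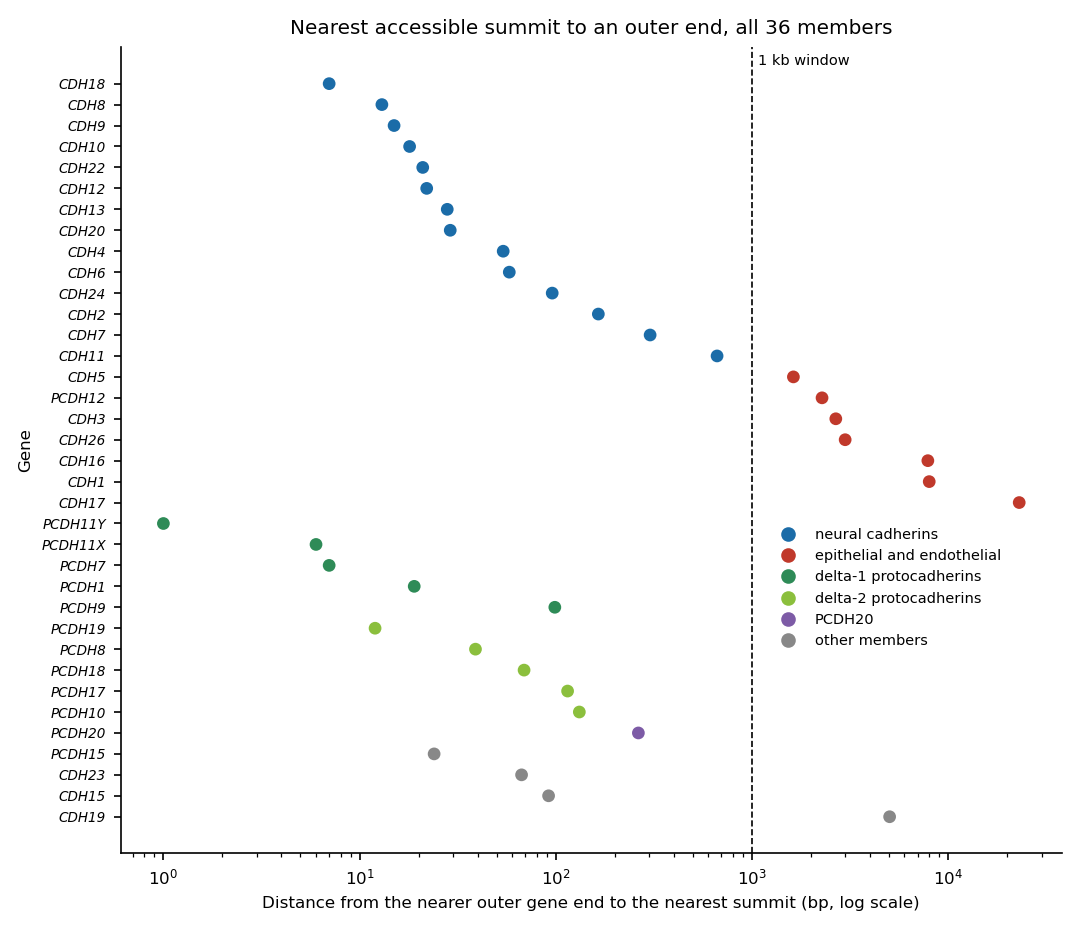
Distance in bp (log scale) from the nearer outer end of each of the 36 genes to the nearest summit of the list, with 1 point per gene coloured by group and the 1 kb window as a dashed line. The 14 neural cadherins lie between 7 and 665 bp and the 7 epithelial and endothelial genes between 1629 and 23076 bp.

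The distances behind these calls left a gap around the threshold. The neural cadherin farthest inside was CDH11, at 665 bp, and the epithelial or endothelial gene nearest to the window was CDH5, at 1629 bp. In 22 of the 28 accessible genes a summit lay within 100 bp of an end. The 2 ends closest to the threshold were the lower-coordinate end of CDH22, at 968 bp, and on the other side the higher-coordinate end of CDH5. With a window of 2 kb CDH5 became accessible, at the end of higher coordinates, and with 500 bp CDH11 was lost.

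Strand was known for 23 of the 36 genes from RefSeq promoter entries (GRCh38.p14). The outer end on the start side, called the outer start here, was open in 20 of them (87.0%), against 68.8% of all protein-coding genes with a strand. These 20 include CDH4, PCDH1 and PCDH17, whose annotated starts all lie further in. None of the 23 was open at the far end alone. The 13 genes without an entry include CDH1, CDH3, CDH5, CDH16 and CDH17, none of which had an open end. The 87.0% therefore does not stand for all 36 genes (77.8% by either end), and the 68.8% was not matched for gene length. The far end was open in 2 of the 23, PCDH8 and PCDH18, against 9.25% of all. Both are short, at 5.75 and 13.6 kb. CDH22, without a strand entry, was the third gene open at both ends, which applied to 6.7% of protein-coding genes.

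The promoters that could be printed show the open and closed classes side by side. RefSeq entries were matched for 23 of the 36 genes, and CDH1 was not among them. The 250 bases before the outer start are given for CDH2, for the neural cadherin and the protocadherin with the highest fold enrichment at an end (CDH10 and PCDH9), and for PCDH12 and CDH26, the 2 epithelial or endothelial genes with an entry, which were added after their values had been seen. Capitals mark CG dinucleotides. The positions are chr18:28177131-28177380 (minus strand), chr5:24644979-24645228 (minus), chr13:67230337-67230586 (minus), chr5:141958203-141958452 (minus) and chr20:59958173-59958422 (plus).
CDH2: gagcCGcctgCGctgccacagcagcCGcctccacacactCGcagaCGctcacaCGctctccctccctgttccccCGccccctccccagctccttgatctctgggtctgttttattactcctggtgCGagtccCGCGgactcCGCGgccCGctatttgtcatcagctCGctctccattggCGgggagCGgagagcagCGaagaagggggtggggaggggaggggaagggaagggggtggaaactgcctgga
CDH10: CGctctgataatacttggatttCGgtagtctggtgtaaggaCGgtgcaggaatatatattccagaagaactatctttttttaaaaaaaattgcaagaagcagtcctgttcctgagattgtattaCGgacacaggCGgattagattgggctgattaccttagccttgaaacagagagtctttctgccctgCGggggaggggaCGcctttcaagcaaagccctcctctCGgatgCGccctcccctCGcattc
PCDH9: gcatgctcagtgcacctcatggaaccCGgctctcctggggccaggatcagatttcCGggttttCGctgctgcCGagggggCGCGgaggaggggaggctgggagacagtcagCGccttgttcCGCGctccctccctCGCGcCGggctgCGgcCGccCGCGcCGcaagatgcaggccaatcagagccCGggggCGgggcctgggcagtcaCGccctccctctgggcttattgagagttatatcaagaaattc
PCDH12: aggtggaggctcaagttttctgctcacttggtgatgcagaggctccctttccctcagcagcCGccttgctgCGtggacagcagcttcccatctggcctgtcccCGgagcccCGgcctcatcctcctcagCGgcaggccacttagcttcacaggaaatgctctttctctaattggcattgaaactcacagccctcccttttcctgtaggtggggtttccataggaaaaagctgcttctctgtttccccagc
CDH26: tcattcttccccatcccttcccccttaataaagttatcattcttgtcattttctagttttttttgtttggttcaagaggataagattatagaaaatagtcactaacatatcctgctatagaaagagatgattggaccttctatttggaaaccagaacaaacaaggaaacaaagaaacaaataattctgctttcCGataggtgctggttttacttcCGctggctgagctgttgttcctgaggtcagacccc

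The 3 open promoters held 17, 10 and 20 CG dinucleotides in 250 bases and the 2 closed ones 5 and 2. Of the 38 annotated starts of these genes 26 were accessible, against 69.1% of all annotated starts of protein-coding genes. The 26 had a median of 10.5 CG dinucleotides (1 to 34) and the 12 others, without a summit within 1 kb, a median of 4 (1 to 6). The ranges overlap, and the open outer start of CDH18 held 4, fewer than the closed one of PCDH12. The 12 include inner starts of genes with an open outer start, such as CDH18 and CDH23. Over all protein-coding genes the medians were 21 at 15337 accessible starts and 4 at 6846 others, so the open starts of the family had a lower median than open starts in general, without a test. Starts of 1 gene can overlap and are not independent.

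E-box and TATA words were searched in the same 250 bases on both strands. CAGATG was present at 5 of the 38 starts of the family (13.2%), against 10.2% of all protein-coding starts. CAGCTG was present at 6 (15.8%, against 13.7%), CAGGTG at 4 (10.5%, against 17.0%) and TATAAA at 6 (15.8%, against 9.01%). Among the 5 printed promoters the single match was CAGATG, read on the opposite strand, in PCDH12.

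The neural cadherins were next described by the strength of their open ends. The value is the tag count at the strongest summit within 1 kb of an end, recovered from the authors' fold enrichment and p-value, with an exact Poisson 95% interval that covers counting error only. CDH2, which encodes N-cadherin, had the most tags of the group, 1294 (1224 to 1366), at a fold enrichment of 5.42 over the background the authors' list implies there. CDH10 had 1126 tags (1061 to 1194) and the highest fold enrichment, 13.6. CDH6, known from kidney and neural tissue, had 1025 tags (963 to 1090) at a fold enrichment of 9.82. These 3 genes stood above the median of open gene ends by tags given next, and the other 11 below it.

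Most of the group had weaker ends than open genes in general. The median over the 14 neural cadherins was 404.5 tags and a fold enrichment of 4.86, against 936 tags and 10.4 over the 13779 accessible protein-coding genes. Their fold enrichment was below that median in 12 of 14 genes, the exceptions being CDH10 and CDH12. The intervals at these ends had a median width of 1602 bp, against 1320 bp over all. The part of that width in the values was not tested.

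At the lower end stood CDH9, a cadherin of hippocampal synapses, with 104 tags (85.0 to 126) at a fold enrichment of 3.47. CDH18 had 145 tags (122 to 171) and CDH11 151 tags (128 to 177). These 3 intervals do not overlap with that of CDH13, at 278 tags (246 to 313), the next in order. CDH13 encodes T-cadherin, which has a lipid anchor in place of a membrane-spanning tail. CDH11, a cadherin of bone and mesenchyme as well as brain, also had the lowest fold enrichment of all 28 genes, 1.88. Its summit at the end lies in an interval 2597 bp wide whose strongest summit, with 243 tags, lies 1.34 kb inside the gene.

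The middle held CDH24 with 925 tags, CDH7 with 577, CDH12 with 536, CDH8 with 458, CDH22 with 351, CDH4 with 339 and CDH20 with 335. Several neighbours in the order cannot be told apart, because their intervals overlap: CDH10 and CDH6, CDH6 and CDH24, CDH7 and CDH12, CDH12 and CDH8, CDH22, CDH4 and CDH20, the last of these and CDH13, CDH11 and CDH18, and CDH18 and CDH9. CDH8, CDH10 and CDH24 share the open end with an end of a non-protein-coding or uncharacterised gene (LOC124903777, LOC124901174 and LOC105370705), and the signal there cannot be assigned to 1 gene of each pair.

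**Figure D2:**
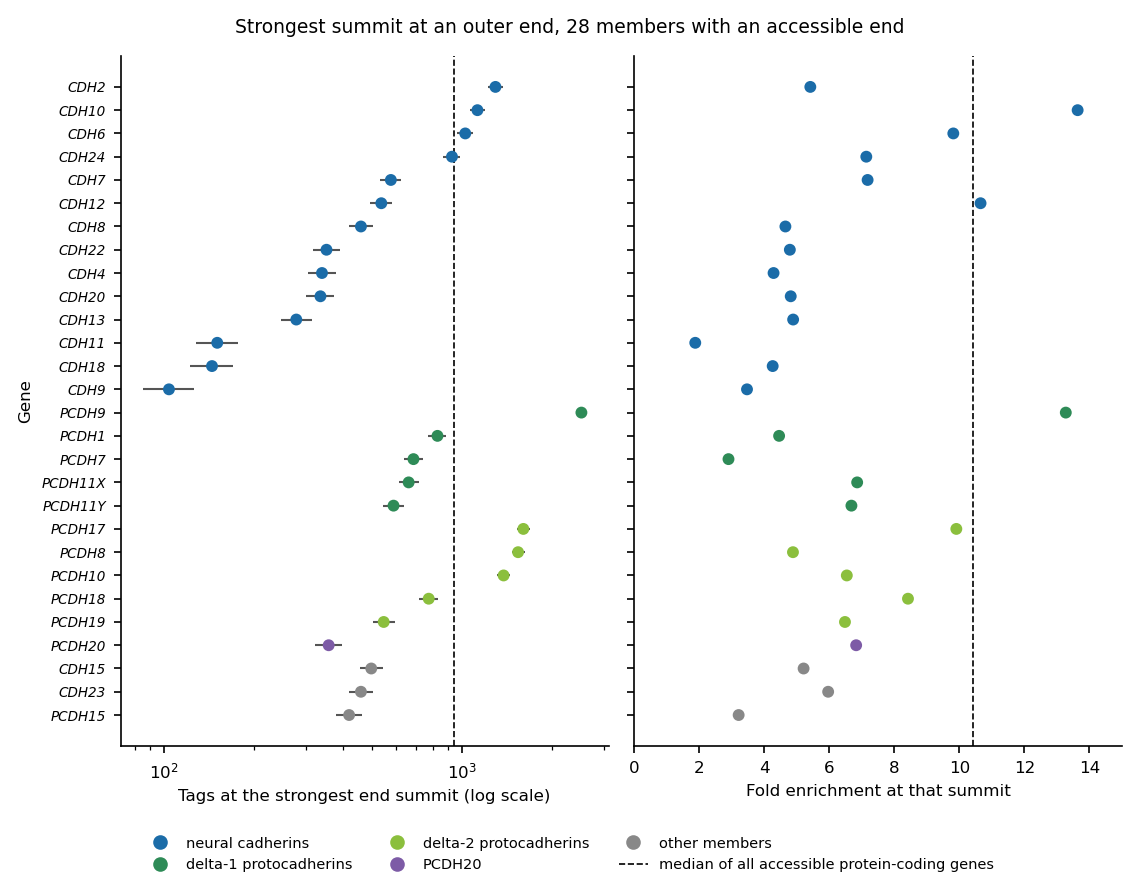
Tag count (left, log scale, with exact Poisson 95% intervals) and fold enrichment (right) at the strongest summit within 1 kb of an outer end, for the 28 genes with an accessible end, coloured by group. Dashed lines mark the medians of 936 tags and 10.4 over all accessible protein-coding genes, and 21 of the 28 genes lie below the first and 25 below the second.

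The closed group comprised the defining cadherins of epithelium and endothelium. CDH1, which encodes E-cadherin, had its nearest summit 21.6 kb from one end and 8.02 kb from the other. CDH3, the P-cadherin gene beside it, had summits 2.68 kb and 18.0 kb from its ends, and the first of these had 193 tags at a fold enrichment of 3.73. CDH16, a kidney cadherin, was 7.90 kb from the nearest summit and CDH17, of liver and intestine, 23.1 kb. CDH26, an epithelial cadherin, had a summit of 140 tags 2.99 kb before its start.

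Both endothelial genes lacked an open end. For CDH5, which encodes VE-cadherin, the nearest summits lay 9.03 kb from the lower-coordinate end and 1.63 kb from the other. The latter belongs to an interval whose strongest summit, 1.87 kb outside the gene, had 539 tags (494 to 586) at a fold enrichment of 9.65. PCDH12, an endothelial protocadherin, had its nearest summit 2.28 kb before its start, with 133 tags. The strongest summit of that interval, 2.69 kb before the start, had 378 tags (341 to 418) at a fold enrichment of 6.76. No interval had its strongest summit inside CDH5, CDH16 or PCDH12.

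On chromosome 16 open and closed members lie in blocks by their order within the family. Other genes between them were not described, so the blocks do not stand for closed stretches of the chromosome. The genes stand in the order CDH8 (61647250 to 62036438), CDH11 (64943753 to 65123744), CDH5 (66366691 to 66404784), CDH16 (66908122 to 66918885), CDH3 (68645310 to 68733771), CDH1 (68737292 to 68835537), CDH13 (82626969 to 83800640) and CDH15 (89171748 to 89195492). The 4 members from CDH5 to CDH1 had no open end and the 4 outside them had one. On chromosome 18 CDH20 and CDH7 were open and their neighbour CDH19, a gene of Schwann cell precursors, was not, with no summit within 69.8 kb of its start.

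The delta protocadherins had a higher median tag count at open ends than the neural cadherins, without a test of the difference. These 10 genes, with PCDH11X and PCDH11Y counted separately, had a median of 800 tags and a fold enrichment of 6.61. Both lay below the 936 tags and 10.4 of all accessible protein-coding genes. By tags 6 of the 10 were below that median, and by fold enrichment 9. Outside the delta set PCDH15 had 418 tags and PCDH20 357, against the neural median of 404.5. PCDH9 led the whole family with 2513 tags (2416 to 2613), at percentile 97.9 of accessible protein-coding genes, and a fold enrichment of 13.3. Among the delta-2 genes PCDH17 had 1605 tags (1527 to 1685), PCDH8, an activity-regulated protocadherin of synapses, 1541 (1465 to 1620), and PCDH10 1378 (1306 to 1453). The intervals of PCDH17 and PCDH8 overlap. PCDH10 shares its open end with the divergent transcript PCDH10-DT, and PCDH11X with LOC105373293.

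PCDH18 had 773 tags and PCDH19, an X-linked gene mutated in a form of epilepsy, 546. Outside the delta-2 set PCDH1 had 827 tags, PCDH7 687 and PCDH20 357. At PCDH8 the 1541 tags gave a fold enrichment of 4.89, over a background of 314.5 tags. PCDH7 had the lowest fold enrichment of the 12 open protocadherins, 2.91, over a background of 235.8 tags. PCDH1 was open at its outer end, while its 1 annotated start, 8.78 kb further in, had no summit within 1 kb.

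PCDH11X and PCDH11Y are near-identical copies on the sex chromosomes, and reads may have been assigned to either. The 250 bases before their outer starts were identical at 249 positions (99.6%), with the substitution G197T (the X base first, counted from 1 at the first of the 250 bases). The stretches around it, with the differing base in capitals, run from chrX:91779291-91779351 and chrY:5000212-5000272, both on the plus strand, and are printed to show how little separates the copies.
PCDH11X: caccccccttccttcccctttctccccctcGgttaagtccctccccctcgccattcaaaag
PCDH11Y: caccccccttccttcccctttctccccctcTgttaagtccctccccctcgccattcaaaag

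Their values were close, at 662 tags (613 to 714) and a fold enrichment of 6.86 for PCDH11X and 589 tags (542 to 639) and 6.68 for PCDH11Y. The Poisson intervals overlap. Each copy also had a distal interval at almost the same place before the gene, 8.38 kb away with 308 tags on X and 8.36 kb away with 371 tags on Y, and another 2.68 kb inside the gene with 510 and 406. How the authors treated reads that match both places is not given in the sources used here, so the 2 genes cannot be counted as independent.

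The 4 remaining members have other known sites. CDH23 and PCDH15 form the tip links of sensory hair cells, and both were open at the start, with 458 tags (417 to 502) and 418 tags (379 to 460). CDH15, a cadherin of muscle, was open at its lower-coordinate end with 496 tags (453 to 542) and a fold enrichment of 5.21. CDH19 had none.

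Starts inside the genes were then compared with the outer ones. The promoter table gives several starts for 11 genes, with 16 inner ones, of which 8 had a summit within 1 kb, and a single start inside the outer end for PCDH1 and PCDH17. Of these 18 inner starts 9 had a summit within 1 kb, against 66.5% of such starts in all protein-coding genes. The outer start was not always the stronger. CDH18 had 145 tags at its outer start (122 to 171) and 803 (748 to 861), at a fold enrichment of 14.2, at a start 587.5 kb further in. PCDH15 had 418 tags at the outer start and 584 (538 to 633) at a start 826.7 kb further in, and the intervals do not overlap.

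CDH2 gave the opposite order by tags and the same order by fold enrichment. Its outer start had 1294 tags at 5.42 and a start 140.5 kb further in had 752 (699 to 808) at 9.81. CDH12 was strongest at the outer start, with 536 tags, and had 141 and 105 tags at the inner starts. In CDH4, of 2 annotated starts, the one 247.2 kb in had no summit within 1 kb and the one 347.5 kb in had 124 tags, while the outer end had 339. The inner starts of PCDH11X, PCDH11Y, CDH23 and CDH26 had none.

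**Figure D3:**
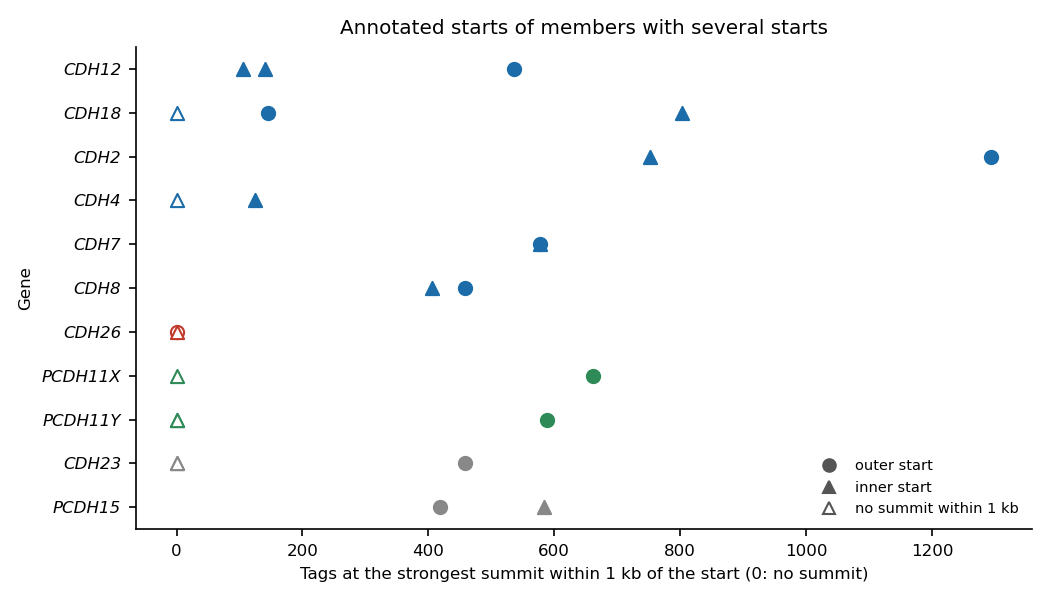
Tags at the strongest summit within 1 kb of each annotated start, for the 11 genes with several starts, with circles for outer and triangles for inner starts and open symbols at 0 for starts with no summit within 1 kb. CDH18 and PCDH15 lie higher at an inner start and CDH2 and CDH12 at the outer one; both CDH7 starts share a summit of 577 tags.

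Inside the genes, intervals were counted by their strongest summit and given per 100 kb of gene. Neural cadherins had a median of 3.05, from 0.51 in CDH8 to 9.57 in CDH24, and the epithelial and endothelial genes a median of 1.02, from 0 to 2.26. Every neural cadherin held at least 1, and 3 of the 7 epithelial and endothelial genes held none. Of all protein-coding genes 51.2% held at least 1, but the share was 92.6% at 100 kb or longer, where 13 of the 14 neural cadherins lie, and 42.8% below, where the 7 lie, so both counts were near those of their length. All protein-coding genes had a median of 0.77. The comparison depends on length, on strength and on how genes are combined. Pooled over the genes of a group, the density was 1.76 for neural and 1.44 for epithelial and endothelial genes, against 2.37 over all protein-coding genes. Neural cadherins of 100 kb or longer had a pooled 1.75, against 2.23 over all genes of that length. Without CDH6, CDH11, CDH13 and CDH24 the neural median was 2.09. The 9 neural cadherins of 100 to 500 kb had a median of 3.69, against 2.05 over all 3041 genes of that length, but the 4 of 500 kb or longer had 1.01, against 1.97. The 5 epithelial and endothelial genes of 20 to 100 kb had 1.29, against 1.97. Above the median fold enrichment the medians were 0.67 and 0 for the 2 groups, against 0.86 over genes of 100 kb or longer and 0 over shorter ones. With every summit counted they were 6.49 and 2.04, against 4.75 and 5.57.

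The densest genes were short. PCDH20 had 16.2 per 100 kb and CDH24 9.57, each from 1 interval, and PCDH18 7.37, also from 1. Next came CDH22 with 7 intervals (5.19 per 100 kb) and CDH2 with 12 (4.91). CDH20, with 10 intervals in 222.4 kb (4.50), was close to them.

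The longest members differed among themselves. PCDH15 (1825 kb) held 12 intervals, CDH13 (1174 kb) 13, CDH18 (1104 kb) 9, CDH12 (1103 kb) 10 and PCDH9 (927.5 kb) 23. PCDH9 thus had 2.48 per 100 kb and the other 4 between 0.66 and 1.11. PCDH11X and PCDH11Y had 2 intervals each, and the longest stretch without a summit covered 532.2 kb (63.1%) and 739.3 kb (99.6%) of them. The count for PCDH11Y includes the interval at its start, with the summit 1 bp inside the gene. That of PCDH11X does not, as its summit lies 6 bp outside. The part of reads that match both copies in these counts and stretches was not tested. In CDH8 the longest such stretch was 199.3 kb and in CDH18 380.9 kb.

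**Figure D4:**
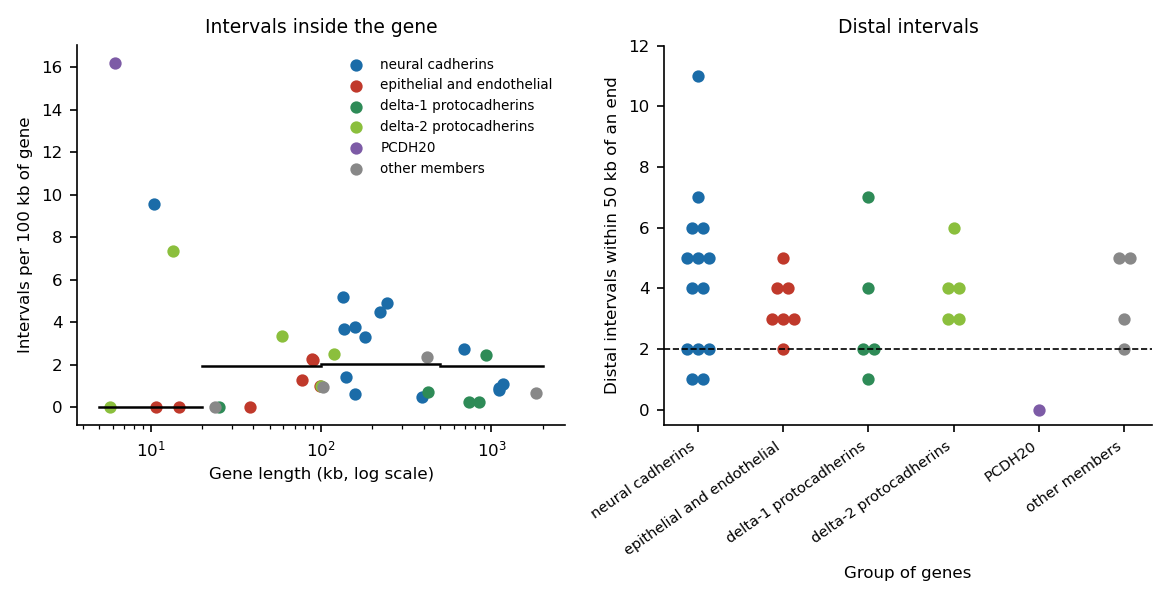
Left, intervals per 100 kb of gene against gene length (log scale), 1 point per gene, with black bars for the median of all protein-coding genes in 4 length classes. Right, distal intervals within 50 kb of an end by group, with a dashed line at the median of 2 over all protein-coding genes; CDH22 is the highest with 11, and the epithelial and endothelial genes lie between 2 and 5.

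**Figure D5:**
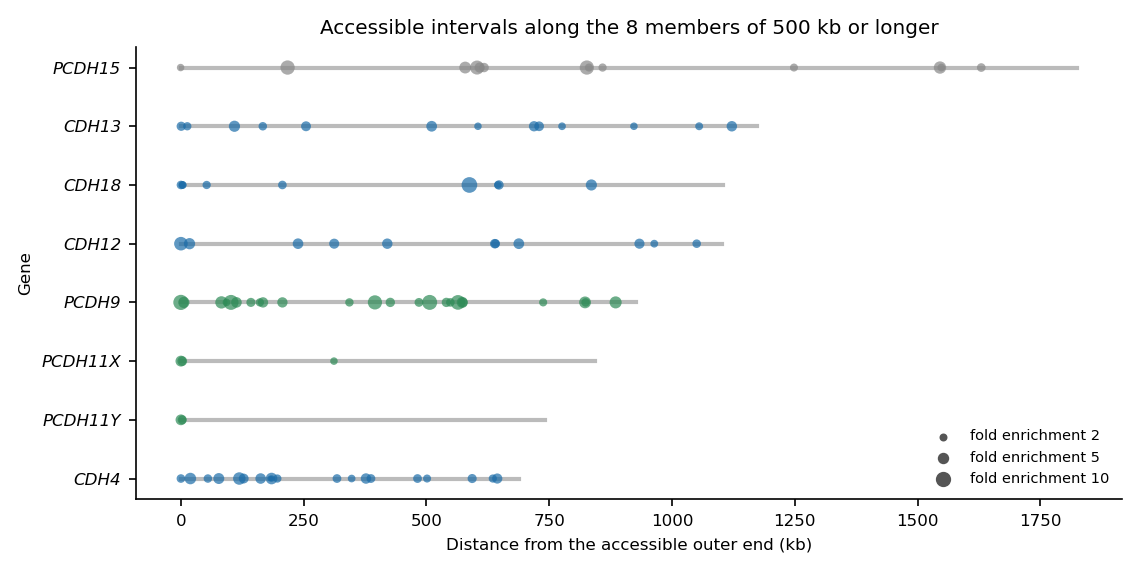
Accessible intervals in and at the open end of the 8 genes of 500 kb or longer, in kb from the accessible outer end, with the area of a point proportional to fold enrichment and the grey line as the gene. Inside the gene PCDH9 holds 23 intervals and CDH4 19, whereas PCDH11X and PCDH11Y hold 2 each.

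Distal intervals, those with no summit within 1 kb of an end of any annotated gene, were counted within 50 kb of the ends. Genes of up to 100 kb were searched across their length and 50 kb beyond each end. Longer genes were searched 50 kb to both sides of each end, a wider total span, so raw counts favour longer genes. Neural cadherins had a median of 4.5, from 1 to 11, and the epithelial and endothelial genes a median of 3, from 2 to 5, so the ranges overlap. Both medians were above the 2 of all protein-coding genes. By length, the neural cadherins of 100 kb or longer had a median of 4, against 3 over all genes of that length. Shorter protein-coding genes had a median of 2. At least 5 such intervals were found for 7 of the 14 neural cadherins and for 1 of the 7 epithelial and endothelial genes (CDH17), against 15% of all protein-coding genes. In genes of 100 kb or longer that share was 33.4%, and it held for 6 of the 13 neural cadherins of that length. With intervals inside the gene left out the medians were 1.5 and 2, so the order of the groups turned, against 2 over genes of 100 kb or longer and 1 over shorter ones. Within 100 kb both were 6, against 6 and 3.

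CDH22 had the most, 11, at percentile 99.7 of protein-coding genes. CDH20 and PCDH1 had 7 each, and CDH2, CDH10 and PCDH8 6 each. PCDH20 had 0, and CDH8, CDH12 and PCDH7 had 1 each. CDH1 and CDH3 share 2 of these intervals, and PCDH1 and PCDH12 share 1.

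The distal intervals near neural cadherins had values close to those of distal intervals in general. Over 61 of them the median fold enrichment was 4.82 and the median tag count 199, against 5.10 and 199 over all 47693 distal intervals. The 22 near epithelial and endothelial genes had 4.69 and 180.5. The 3 highest by fold enrichment near neural cadherins were 39.9 kb from CDH24 (chromosome 14, 23006636 to 23007573, 17.0 with 1866 tags), 31.7 kb from CDH6 (chromosome 5, 31161562 to 31162393, 12.3 with 911 tags) and inside CDH2, 18.0 kb from its far end (chromosome 18, 27950483 to 27951224, 11.8 with 537 tags). Nearness does not assign an interval to a gene.

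The partners of cadherins were largely open. An accessible end was found for 13 of 14 adherens junction genes, including CTNNB1 (beta-catenin, 1151 tags), CTNND2 (a delta-catenin of neurons, 1608 tags), VCL (vinculin, 1789 tags) and JUP (plakoglobin, 1534 tags). The exception was CTNNA2, the alpha-catenin of neurons, which had 1 of its 4 annotated starts accessible and 30 intervals inside the gene. Among more distant relatives, 11 of 12 atypical cadherins were accessible, FAT2 being the exception, and 3 of 7 desmosomal cadherins. DSG2, DSC2 and DSC3 had 263, 248 and 299 tags, and DSG1, DSG3, DSG4 and DSC1 had no open end. The background for all 3 lists is the 68.8% given above, or by length 82.2% at 100 kb or longer and 76.6% at 20 to 100 kb. Median lengths were 122.8 kb for the adherens junction genes, 117.3 kb for the atypical and 41.1 kb for the desmosomal cadherins.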

How the data were processed

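ATAC-seq peaks of 3 replicates (KOLF2.1J with NGN2, day 14) were deposited by the authors as 1 pooled list. Per the labels it is the optimal list of an IDR (irreproducible discovery rate) comparison. The build was hg38 per the submitters' processing notes. The aligner, peak caller and filters are not given in the sources used here. Per summit, the authors deposited a score (540 to 1000), fold enrichment as a linear ratio (1.29 to 31.9), −log10 p (5.92 to 2945) and −log10 q (4.28 to 2939). The depth per replicate is unknown.

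Tag counts (58 to 3783, median 189) were recovered here: a whole count reproduced each p under a Poisson tail to within 0.00079. Entries with the same bounds formed 1 interval. Gene ends came from RefSeq (GRCh38.p14). With genes moved by 100 kb the accessible share fell from 68.8 to 13.5%. One marker, listed under the older symbol TDGF1, was found as CRIPTO. Described were all 36 genes, with values for every accessible or epithelial and endothelial gene, the 5 densest, longest and richest in distal intervals, and the 3 strongest distal intervals. Members, lists and groups were chosen with earlier results of these data known. With 1 pooled list there is no test. PCR tags are not independent molecules, so intervals cover counting error only. Alternatives were other windows, overlap, thresholds and lists. One shortened list left out CDH6, CDH11, CDH13 and CDH24 (10 of 10 neural cadherins accessible), and the other PCDH12 (0 of 6 epithelial and endothelial genes). Python 3.11.15, numpy 2.4.6, scipy 1.17.1 and pandas 2.3.3 were used, tested on simulated data.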

Additional observations from a re-analysis of the deposited data

How the results depend on the processing

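Of 70 recomputed values for 9 results, 55 stayed within the interval or the 1.5-fold limit set for them and 15 moved. The difference of shares between neural and epithelial and endothelial genes kept its direction. Above the median fold enrichment, the shares of all 36 genes and of neural cadherins turned from above the background to below it. The order of the 2 distal medians turned without intervals inside the gene (1.5 against 2). It vanished within 100 kb and above the median fold enrichment. Windows of 500 bp and 2 kb, overlap, the strongest summit of each interval alone, a score of at least 830, the outer start alone, the 2 shortened lists and, added after the data had been seen, any annotated start and leaving out PCDH11Y moved no share of accessible genes beyond its interval. The genes they changed were CDH11 (lost with 500 bp and with the strongest summit), CDH9 (lost with the score), PCDH1 (lost with annotated starts) and CDH5 (gained with 2 kb). The settings by start covered only 9 of the 14 neural cadherins and 2 of the 7 epithelial and endothelial genes. They could not show a change in the genes without a promoter entry. Keeping only intervals above the median fold enrichment lowered the shares to 38.9% of all 36 genes, 35.7% of neural cadherins, 61.5% of protocadherins and a difference of 35.7 percentage points, against 58.1% of all protein-coding genes, with still no epithelial or endothelial gene. Intervals per 100 kb became 6.49 and 2.04 (neural, then epithelial and endothelial) with every summit counted, 0.67 and 0 above the median fold enrichment, and 0 for the second group with the score. Distal medians became 2 and 1 within 20 kb, 1 and 1 above the median fold enrichment, 6 for the second group within 100 kb, and 1.5 for the neural cadherins without intervals inside the gene. No paired analysis was possible because all replicates were merged into 1 list, and no replicate could be left out.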
